A study of Mus musculus with 4 samples.

Results

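The genes described here are 10 imprinted genes, taken from a list of names and read out of the RNA-seq libraries of mouse hematopoietic stem and progenitor cells (HSPCs) in which Chaf1b was deleted or kept. All 10 were found by mouse symbol among the 43629 gene identifiers of the 4 count tables. Of these, 8 had at least 10 counts in a library and entered the test beside the other genes, 16500 in all. H19 and Plagl1 stayed under 10 counts in every library and are not measured. The cells were CD117+ HSPCs of C57Bl/6 mice with Chaf1b (fl/fl) alleles, cultured with SCF, IL6 and IL3. The 2 control libraries came from cells spinfected with the empty retroviral vector MIGR1, and the 2 Chaf1b-deleted libraries, labelled Chaf1b (-/-), from cells spinfected with MIGR1-Cre, with eGFP-positive cells sorted at 48 h. The controls carried the floxed alleles but no Cre, so an effect of Cre itself cannot be told apart from an effect of the deletion. The comparison asks which of these genes differed in RNA level once CHAF1B was removed.

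Imprinted genes are transcribed mainly from the copy inherited from 1 parent. The choice is kept through cell division by DNA methylation at imprinting control regions and, in some domains, by long non-coding RNAs and repressive histone marks, which have to be put back on new chromatin after each round of replication. CHAF1B is a subunit of CAF-1, the chaperone that places histones H3 and H4 on newly copied DNA. Several imprinted genes, Cdkn1c, Dlk1, Meg3, Igf2, H19 and Grb10 among them, are known for their expression in long-term hematopoietic stem cells. The counts give total RNA per gene and hold no information on which parental copy it came from.

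Chaf1b itself had 1825 and 1471 counts in the controls and 378 and 330 in the deleted libraries, a log2 fold change of -2.01 with a standard error (SE) of 0.25. Its adjusted p was 0.0330 (edgeR's quasi-likelihood test, Benjamini-Hochberg adjustment over all genes tested), and 0.0651 where 10 counts were required in every library, which ends the call, as did the replicate number as a block (0.0590). The libraries held 18468637 to 25409926 counts on genes. HSPC markers were present in each library, with 2251 to 3161 counts of Kit. Granulocyte genes were more abundant. As CPM (counts scaled to each library's total on genes), 10 of them summed to 53640.9 and 61624.5 in the controls. They summed to 75497.1 and 56512.2 in Chaf1b-deleted replicates 1 and 2, so the groups overlapped. The 10 HSPC markers summed to 1948.66 to 2239.58 CPM. The quasi-likelihood test called 0 granulocyte genes, edgeR's exact test Mmp8, and DESeq2 Mmp8 and Ltf, each higher. Over all 16500 genes tested, the exact test called 537 higher and DESeq2 472. At an unadjusted p under 0.05 in the quasi-likelihood test, Mmp8 and Ltf lay higher, beside 9.15% of all genes, and Elane lower, beside 3.1%. Of the 10 granulocyte genes, 7 had a positive and 3 a negative log2 fold change. Chaf1b-deleted replicate 1 stood apart. It had 7905 counts of Xist against 23 to 33 in the other libraries, and 3 counts in all of 4 Y-linked genes against 5805 to 7771. Its interferon-stimulated genes lay a median of 3.52 log2 units above the control mean, against 0.26 in Chaf1b-deleted replicate 2. The fold change of each member tested is therefore also given without that library. Xist without Y-linked RNA is the pattern of female cells and the reverse that of male cells, so the 2 deleted libraries differed in sex, while both controls had the male pattern. The labels give no sex and do not say whether the libraries came from separate animals, so the p-values measure only the spread between these libraries, which may be technical between the controls and includes a sex difference between the deleted libraries.

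Cdkn1c rose on deletion, and Grb10, Igf2r and Impact, which with Cdkn1c were the members with more than 100 counts in a library, did not pass the test. The growth-related genes Dlk1 and Igf2 had few counts in the controls and more in both deleted libraries. For Peg3 and Meg3 the groups overlapped. Of the 8 members tested, 1 (Cdkn1c) was called higher, at an adjusted p under 0.05 and a change of at least 1.5-fold, where 0.37% of all genes tested were called higher. By the same test 0 of 8 were called lower, where 0.00606% of all genes were, and edgeR's exact test and DESeq2 also called 0 of 8 lower. Without Chaf1b-deleted replicate 1 the same test called 1 member higher, again Cdkn1c, and 0 lower. At an unadjusted p under 0.05, 3 of 8 lay higher (Cdkn1c, Dlk1 and Igf2), beside 9.15% of all genes, and 1 of 8 lay lower (Grb10), beside 3.1%. The same 3 members had both deleted libraries above both controls, which 22.3% of all genes did, and Grb10 had both below, which 21.4% did. The median log2 fold change was 1.36 over the 8 members and -0.03 over all genes tested. Dlk1 and Igf2 passed the filter on low counts only through the deleted libraries, so they had to differ to be tested, and these counts and the median over 8 members are descriptions only. The same holds for Fgd5, Cdh15, Igfbp6, Gm498, Pdgfra and Cdh5 below, and Ascl2 and Lepr passed only through the controls.

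**Figure D1:**
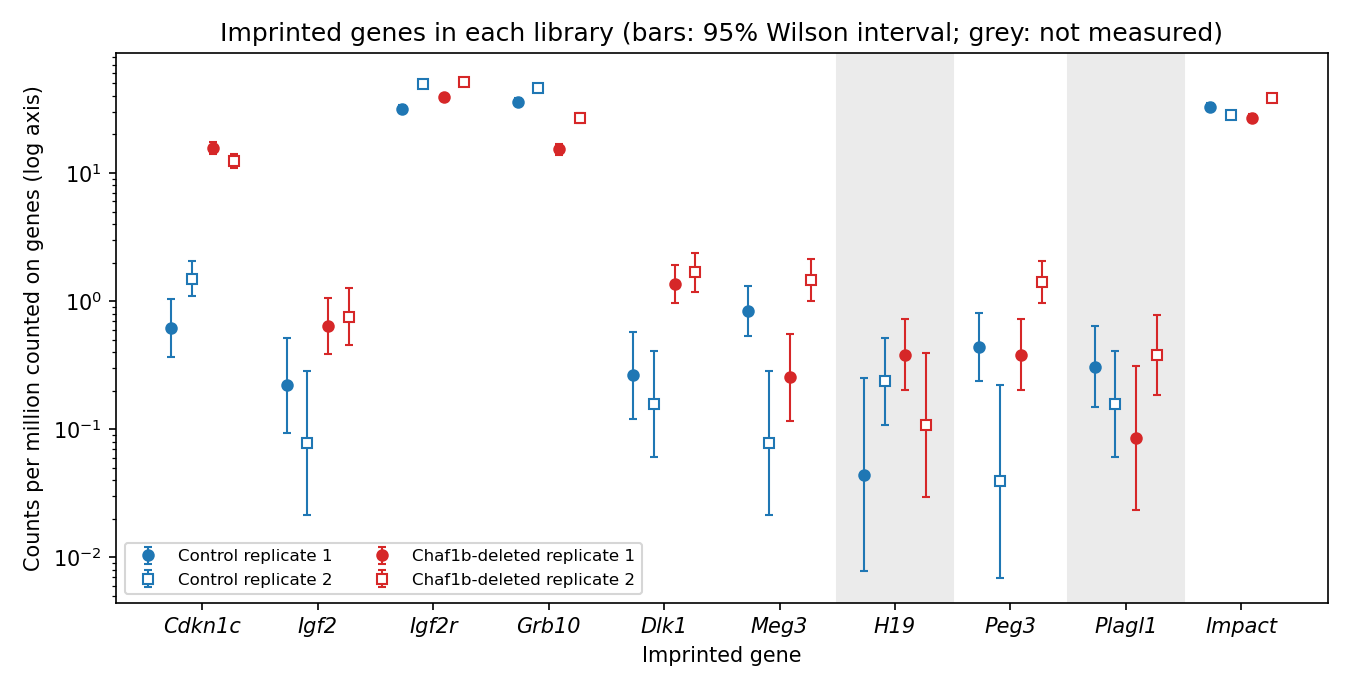
CPM, counts scaled to each library's total on genes (log axis), of the 10 imprinted genes in each of the 4 libraries, with circles for replicate 1, squares for replicate 2 and bars for the 95% Wilson interval of the counting error. The deleted libraries lie above both controls for Cdkn1c, Igf2 and Dlk1 and below both for Grb10, while the groups overlap for Igf2r, Meg3, Peg3 and Impact, and the grey bands mark H19 and Plagl1, which are not measured.

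Cdkn1c encodes p57, an inhibitor of cyclin-dependent kinases of the Cip/Kip family, and is expressed from the maternal copy. The gene (ENSMUSG00000037664) lies on the minus strand at chr7:150644255-150646955 (NCBIM37, the Ensembl name of the authors' mm9 build). It had 14 and 38 counts in the controls and 368 and 229 counts in Chaf1b-deleted replicates 1 and 2. Scaled to each library's total on genes, as CPM, these are 0.616 and 1.5 in the controls and 15.6 and 12.4 in the deleted libraries. Both deleted libraries were far above both controls, and the 95% Wilson intervals, which cover counting error only, did not meet, with an upper bound of 2.05 CPM in control replicate 2 and a lower bound of 10.9 CPM in Chaf1b-deleted replicate 2. After TMM scaling, the level was 1.04 ± 0.60 CPM in the controls and 14.3 ± 3.69 CPM in the deleted libraries (SD, n = 2 each). The log2 fold change was 3.76 with an SE of 0.50, a 13.5-fold increase, with an adjusted p of 0.0371 (edgeR's quasi-likelihood test, adjusted over all genes by Benjamini-Hochberg).

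The call for Cdkn1c did not rest on the library that stood apart. Without Chaf1b-deleted replicate 1 the log2 fold change was 3.46 with an adjusted p of 0.0282 (edgeR's quasi-likelihood test). Leaving out each library in turn gave values from 3.27 to 4.52, all of them called. The adjusted p moved across the threshold with the scaling, however, at 0.0525 with DESeq2's size factors and 0.0579 with library size alone, at log2 fold changes of 3.75 and 3.72, and at 0.0651 where 10 counts were required in every library. In the 1931 exonic bases of Cdkn1c, no stretch of 31 bases occurs elsewhere in the genome, and the annotation places no other gene over it.

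In bulk RNA, a larger share of cells expressing Cdkn1c and more of its RNA per cell cannot be told apart. Other genes that mark long-term stem cells moved in part with it. Of 10 such markers 9 were tested. At an unadjusted p under 0.05 Procr, Fgd5 and Mecom lay higher, beside 9.15% of all genes, and Mllt3 lower, beside 3.1%. By edgeR's quasi-likelihood test 0 of 9 were called, and 2 (Procr and Fgd5) by its exact test and by DESeq2. Over all 16500 genes tested, the exact test called 537 higher and DESeq2 472. Fgd5 was tested only because its counts were higher in the deleted libraries. Procr, the endothelial protein C receptor, had 33 and 30 counts in the controls and 179 and 123 in the deleted libraries. Slamf1 (CD150) had 22 and 28 against 20 and 32 counts, with overlapping groups. The summed level of the stem cell markers was 65.3 and 56.7 CPM in the controls and 58.2 and 82.4 CPM in the deleted libraries. Among the 10 markers of HSPCs, 1 was called, the progenitor receptor Flt3, with 106 and 135 counts against 454 and 419. It was called higher, as were 0.37% of all genes tested. At an unadjusted p under 0.05, 3 HSPC markers lay higher, beside 9.15% of all genes, and 1 (Myb) lower, beside 3.1%. Their log2 fold changes were positive in 7 and negative in 3. The part of these cells in the Cdkn1c values was not tested.

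Cdkn1c had by far the fewest counts of the 3 Cip/Kip inhibitors in the controls. Cdkn1a, which encodes p21 and is a main target of p53, had 1348 and 1972 counts in the controls and 2620 and 2299 in the deleted libraries. Both deleted libraries lay above the controls, with a log2 fold change of 0.81, an SE of 0.21 and an adjusted p of 0.187 (edgeR's quasi-likelihood test). Cdkn1b, which encodes p27, had 2140 and 2227 counts in the controls and 2414 and 2489 in the deleted libraries, with a log2 fold change of 0.40, an SE of 0.20 and an adjusted p of 0.489. Neither is imprinted in the mouse, and neither was called.

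The genes tested that share the Kcnq1ot1 imprinted domain with Cdkn1c gave no call. Kcnq1ot1 itself was not found by name in the annotation and was not read, and Kcnq1 had 0 to 2 counts per library. Phlda2, a pleckstrin-domain gene that limits placental growth, had 61 and 41 counts in the controls and 37 and 87 in the deleted libraries. Slc22a18, an organic cation transporter and the nearest neighbour, had 7 and 33 against 21 and 29 counts. In both genes the groups overlapped, with log2 fold changes of 0.52 (SE 0.58) and 0.60 (SE 0.73). Ascl2, a transcription factor of the trophoblast, was low in all libraries at 15 and 21 counts in the controls and 9 and 6 in the deleted libraries, a log2 fold change of -1.02 with an SE of 0.64. The more strongly expressed Nap1l4, Tssc4, Tspan32, Cd81 and Osbpl5 had log2 fold changes between -0.31 and 0.12, at adjusted p from 0.676 to 0.971 (edgeR's quasi-likelihood test). Tnfrsf23, a decoy receptor for TRAIL, had 343 and 458 counts against 597 and 628, with a log2 fold change of 0.86, an SE of 0.24 and an adjusted p of 0.207. Its value is uncertain, because 38.3% of its exonic stretches of 31 bases also occur elsewhere in the genome.

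A wider view of the chromosome around Cdkn1c was chosen after the values were seen and is given as a description. Of the 20 other genes tested with a start within 500 kb, 0 were called by edgeR's quasi-likelihood test, 1 (Gm498) by its exact test and 0 by DESeq2. At an unadjusted p under 0.05, 2 lay higher (Gm498 and Tnfrsf23), beside 9.15% of all genes, and 1 lower (Dhcr7), beside 3.1%. The median log2 fold change of the 20 was -0.24. The largest, 5.19 for Gm498, rested on few counts in the controls.

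**Figure D2:**
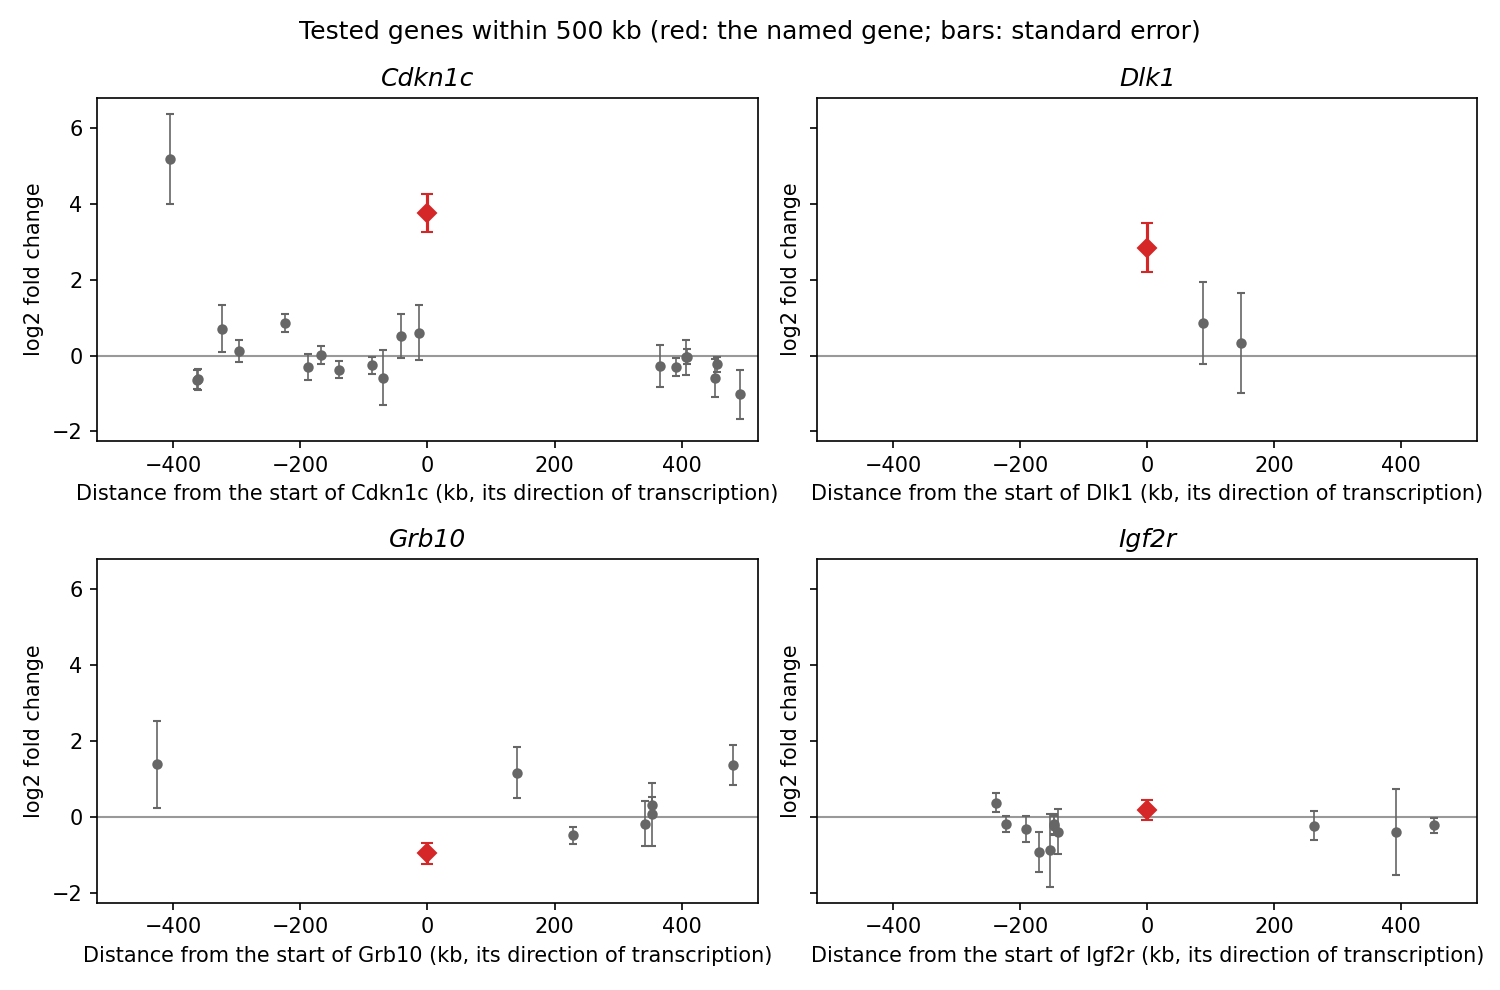
Log2 fold change, Chaf1b-deleted over control, of the tested genes within 500 kb of the starts of Cdkn1c, Dlk1, Grb10 and Igf2r, against distance in kb along each gene's direction of transcription, with the named gene as a red diamond and bars for the SE. Cdkn1c at 3.76 lies above its 20 neighbours except Gm498 at 5.19, Dlk1 at 2.84 lies above its 2, Grb10 at -0.96 lies below its 7, and Igf2r at 0.19 lies within the range of its 11, from -0.93 to 0.38.

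Igf2, Igf2r and Grb10 are the members of the insulin-like growth factor axis. Igf2, the paternally expressed growth factor (ENSMUSG00000048583, minus strand, chr7:149836673-149852721), was close to the lowest level that can be counted. It had 5 and 2 counts in the controls and 15 and 14 in the deleted libraries, which is 0.220 and 0.0787 CPM against 0.637 and 0.758 CPM. The deleted libraries were both above the controls, but the 95% Wilson intervals of control replicate 1, up to 0.515 CPM, and of Chaf1b-deleted replicate 1, from 0.386 CPM, overlapped. The log2 fold change was 2.22 with an SE of 0.79 and an adjusted p of 0.301 (edgeR's quasi-likelihood test), and 2.24 without Chaf1b-deleted replicate 1. The antisense gene Igf2as overlaps it and had 0 to 3 counts per library. As the sources used here do not give the strand setting of the counting, reads of such a pair cannot be told apart.

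Igf2r, the maternally expressed receptor that takes IGF2 to the lysosome, was among the most abundant members. The gene (ENSMUSG00000023830) lies on the minus strand at chr17:12875272-12962530. It had 31.5 and 49.1 CPM in the controls and 39.0 and 51.8 CPM in the deleted libraries. The groups overlapped and control replicate 1 was the lowest. The log2 fold change was 0.19 with an SE of 0.26 and an adjusted p of 0.826 (edgeR's quasi-likelihood test), and it turned to -0.10 without control replicate 1 and was 0.28 without Chaf1b-deleted replicate 1. Airn, the non-coding RNA that silences the paternal Igf2r copy and overlaps it on the other strand, had 5 to 8 counts per library, and Slc22a3 of the same domain had 997 and 718 counts in the controls and 415 and 823 in the deleted libraries.

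Grb10 encodes an adaptor that binds the insulin and IGF1 receptors and dampens their signal. It is expressed from the maternal copy in most tissues. The gene (ENSMUSG00000020176) lies on the minus strand at chr11:11830511-11938686. It had 820 and 1163 counts in the controls and 360 and 493 in the deleted libraries, or 36.1 and 45.8 CPM against 15.3 and 26.7 CPM. Both deleted libraries were below both controls, and Chaf1b-deleted replicate 1, the library that stood apart, was the lower. After TMM scaling the level was 40.5 ± 6.27 CPM in the controls and 20.8 ± 6.09 CPM in the deleted libraries (SD, n = 2 each). The log2 fold change was -0.96 with an SE of 0.27 and an adjusted p of 0.213 (edgeR's quasi-likelihood test), and -0.70 without Chaf1b-deleted replicate 1. It missed the threshold, and was called only when no filter on low counts was used, with an adjusted p of 0.0454. The summed level of 10 erythroid markers was 806 and 748 CPM in the controls and 447 and 506 CPM in the deleted libraries. Most of it was Tfrc, at 730 and 708 CPM against 416 and 459 CPM. Of the 9 tested, 6 had a negative and 3 a positive log2 fold change. Tfrc and Ermap lay lower at an unadjusted p under 0.05, beside 3.1% of all genes, and Hba-a1 higher, beside 9.15%. Of these markers, 0 of 9 tested were called by edgeR's quasi-likelihood test, its exact test or DESeq2. Their part in the Grb10 value was not tested.

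Of the 7 members in the RefSeq promoter table, upstream sequences are shown for Grb10 and Dlk1. Grb10 was the member that lay lower, Dlk1 had the smallest p of the 7, and their sequences differ in CG content. CG is the substrate of DNA methylation, which was not measured here. Whether the sequences shown lie in imprinting control regions was not examined. Each is the 250 bases before a RefSeq start (GRCm38.p6), 5′ to 3′ on the gene's strand, with CG dinucleotides in capitals. Grb10 has an upstream start on chr11:12037421-12037670 and a downstream one on chr11:12027972-12028221, both on the minus strand, and Dlk1 has a start on chr12:109452573-109452822, on the plus strand.
Grb10 upstream start: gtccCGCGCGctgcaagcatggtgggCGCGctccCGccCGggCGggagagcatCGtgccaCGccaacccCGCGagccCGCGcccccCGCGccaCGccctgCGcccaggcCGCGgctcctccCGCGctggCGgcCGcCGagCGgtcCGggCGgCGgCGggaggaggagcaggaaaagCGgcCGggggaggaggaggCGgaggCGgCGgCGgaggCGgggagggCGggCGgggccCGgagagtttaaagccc
Grb10 downstream start: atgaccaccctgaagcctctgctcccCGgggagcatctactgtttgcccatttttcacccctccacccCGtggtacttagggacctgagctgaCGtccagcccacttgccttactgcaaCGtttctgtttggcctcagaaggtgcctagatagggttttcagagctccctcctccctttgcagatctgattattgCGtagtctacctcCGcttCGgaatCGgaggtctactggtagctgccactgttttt
Dlk1 start: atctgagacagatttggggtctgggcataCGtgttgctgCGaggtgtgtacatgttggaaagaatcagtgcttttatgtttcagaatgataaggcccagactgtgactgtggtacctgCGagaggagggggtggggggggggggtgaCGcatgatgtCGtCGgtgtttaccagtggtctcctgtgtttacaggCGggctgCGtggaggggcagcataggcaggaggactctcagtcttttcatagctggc

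The upstream Grb10 stretch holds 40 CG dinucleotides, and 1.31% of the 32851 RefSeq promoters of the same length hold at least as many. The downstream one holds 8, as does that of Dlk1, and 43.0% of promoters hold at least as many. The same letters occur once in NCBIM37, at chr11:11937424-11937673, chr11:11927975-11928224 and chr12:110690783-110691032. No annotated exon of the named gene lies over any of the 3 there. The counts are summed over each gene, so they do not say which Grb10 start was in use. Cdkn1c, H19 and Impact have no entry in the table, so the comparison of these letters leaves out the member that was called. Among the other members, Igf2r had 27 CG in these 250 bases, Plagl1 had 19, the 4 starts of Igf2 had 1 to 22, Meg3 had 10 and 0 at its starts, and Peg3 had 8. The median over all promoters was 6. The letters CCGGAAG, a core to which ETS factors bind, were searched on both strands and were found in 0 of these 12 member promoters and in 6.91% of all promoters.

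Around Grb10, Ddc, which encodes dopa decarboxylase and is imprinted in the heart, had 23 and 10 counts in the controls and 24 and 40 in the deleted libraries, and Cobl, an actin nucleator, had 47 and 1 against 31 and 79. Their log2 fold changes were 1.17 (SE 0.67) and 1.38 (SE 1.16), both positive where that of Grb10 was negative, and neither passed the test. Of the 7 genes tested within 500 kb, 0 were called by edgeR's quasi-likelihood test, its exact test or DESeq2. At an unadjusted p under 0.05, 1 (Gm11998) lay higher, beside 9.15% of all genes.

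Dlk1 and Meg3 are the oppositely imprinted pair of the Dlk1-Meg3 domain. Dlk1, from the paternal copy, encodes a membrane protein of the Delta family that holds back differentiation in several lineages, and Meg3, from the maternal copy, is a long non-coding RNA. Dlk1 (ENSMUSG00000040856, plus strand, chr12:110691033-110701546) had 6 and 4 counts in the controls and 32 and 31 in the deleted libraries, or 0.264 and 0.157 CPM against 1.36 and 1.68 CPM. The deleted libraries were alike and both above the controls, and the highest control bound, 0.576 CPM, lay below the lowest deleted bound, 0.963 CPM (95% Wilson intervals, counting error only). The log2 fold change was 2.84 with an SE of 0.64 and an adjusted p of 0.130 (edgeR's quasi-likelihood test), and 2.89 without Chaf1b-deleted replicate 1. Dlk1 thus missed the threshold in this test, was called by edgeR's exact test at an adjusted p of 0.00332, and had an adjusted p of 0.0702 in DESeq2's Wald test. Over all 16500 genes tested, the exact test called 537 higher. Dlk1 passed the filter on low counts only through the deleted libraries, so its intervals, p-values and call are descriptions only.

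Meg3 (ENSMUSG00000021268, plus strand, chr12:110779211-110809936) had groups that overlapped. It had 19 and 2 counts in the controls and 6 and 27 in the deleted libraries. Control replicate 1 and Chaf1b-deleted replicate 2 were high, and control replicate 2 and Chaf1b-deleted replicate 1 low. Its log2 fold change was 0.86 with an SE of 1.09 and an adjusted p of 0.811 (edgeR's quasi-likelihood test). It fell to -0.66 without Chaf1b-deleted replicate 2 and to -0.03 without control replicate 2, and reached 3.31 without control replicate 1 and 1.61 without Chaf1b-deleted replicate 1. Rtl1, a retrotransposon-derived gene of the same domain, had 10 and 0 counts in the controls and 3 and 8 in the deleted libraries.

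Peg3, a paternally expressed zinc finger gene, had its highest and lowest libraries in common with Meg3. The gene (ENSMUSG00000002265) lies on the minus strand at chr7:6656603-6683132. It had 10 and 1 counts in the controls and 9 and 26 in the deleted libraries. The groups overlapped, with Chaf1b-deleted replicate 2 highest and control replicate 2 lowest. Its log2 fold change was 1.87 with an SE of 1.04 and an adjusted p of 0.527 (edgeR's quasi-likelihood test), and ranged from 0.84 to 4.29 with 1 library left out, with 2.48 without Chaf1b-deleted replicate 1.

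Some markers of other cells varied between replicates along with Meg3, Peg3 and Cobl. The macrophage complement gene C1qa had the opposite order, with 15, 589, 249 and 8 counts in control replicates 1 and 2 and Chaf1b-deleted replicates 1 and 2. C1qc and Mertk shared that order. C1qb, Cd68, Csf1r, Mrc1 and Vcam1 also had control replicate 2 and then Chaf1b-deleted replicate 1 highest, but control replicate 1 lowest. Emr1 and Cd163 had neither order. C1qb had 1.36 and 37.7 CPM in the controls and 16.5 and 1.79 CPM in the deleted libraries. Csf1r had 59.5 and 158 CPM in the controls and 98.6 and 89.8 CPM in the deleted libraries. The summed level of 10 macrophage genes was 187 and 545 CPM in the controls and 423 and 324 CPM in the deleted libraries, and 1 of 10 tested, Emr1, had an unadjusted p under 0.05. The summed level of 10 stromal genes was 26.3 and 11.9 CPM in the controls and 23.6 and 45.0 CPM in the deleted libraries, most of it Pdgfrb, a receptor of pericytes, at 17.5 and 9.25 CPM against 14.6 and 33.9 CPM. Pdgfrb and the collagen gene Col1a2, with 116, 20, 56 and 104 counts, had the order of Meg3, and the other 3 stromal markers tested, Col1a1, Pdgfra and Lepr, did not. Lepr had 11 and 11 counts in the controls and 5 and 3 in the deleted libraries, and Col3a1 had 10 in control replicate 1 and 1 in each of the others. Of the 10 stromal markers 5 were tested, and Col1a1 and Pdgfra lay higher at an unadjusted p under 0.05, beside 9.15% of all genes. The defining markers Lum and Dcn had 1 count in control replicate 1 and 0 in the other libraries. Pdgfra, also a stromal marker, had 1 and 2 counts in the controls and 19 and 27 in the deleted libraries, both above the controls as for Dlk1 and Igf2. Of 10 endothelial markers 7 were tested. The summed level of the 10 was 42.1 and 52.1 CPM in the controls and 40.5 and 53.3 CPM in the deleted libraries. Most of that sum was Egfl7, with 768 and 1116 counts in the controls and 613 and 645 in the deleted libraries. Its log2 fold change was -0.34. After TMM scaling, 5 of the 7 tested had both deleted libraries above both controls, beside 22.3% of all genes. For 1 of the 7 both lay below, beside 21.4%. Of the endothelial markers, Cdh5, Kdr, Tie1 and Esam lay higher at an unadjusted p under 0.05, again beside 9.15% of all genes. By edgeR's quasi-likelihood test 0 markers of these 3 lists were called, by its exact test Pdgfra and Kdr, and by DESeq2 Kdr, and their part in the values of the imprinted genes was not tested.

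Impact, the paternally expressed inhibitor of the eIF2 kinase GCN2, was the most abundant member per length. The gene (ENSMUSG00000024423) lies on the plus strand at chr18:13130761-13151457. It had 744 and 723 counts in the controls and 632 and 710 in the deleted libraries, or 32.7 and 28.5 CPM against 26.8 and 38.4 CPM. The groups overlapped, with Chaf1b-deleted replicate 1 lowest and replicate 2 highest. For Impact the log2 fold change was 0.10 with an SE of 0.23 and an adjusted p of 0.903 (edgeR's quasi-likelihood test), and turned to -0.01 without control replicate 2 and -0.05 without Chaf1b-deleted replicate 2. Without Chaf1b-deleted replicate 1 it was 0.25.

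H19, the maternally expressed non-coding RNA next to Igf2, had 1, 6, 9 and 2 counts in control replicates 1 and 2 and Chaf1b-deleted replicates 1 and 2. Plagl1, a paternally expressed zinc finger factor that acts on other imprinted genes, had 7, 4, 2 and 7 counts. These values lie near the level of 3 counts, 0.118 to 0.162 CPM in these libraries, which 0 counts would still allow, and a difference in either gene was not detectable at this depth. Of the Plagl1 exonic stretches of 31 bases 9.97% occur elsewhere in the genome, and 4.99% of those of Meg3.

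**Figure D3:**
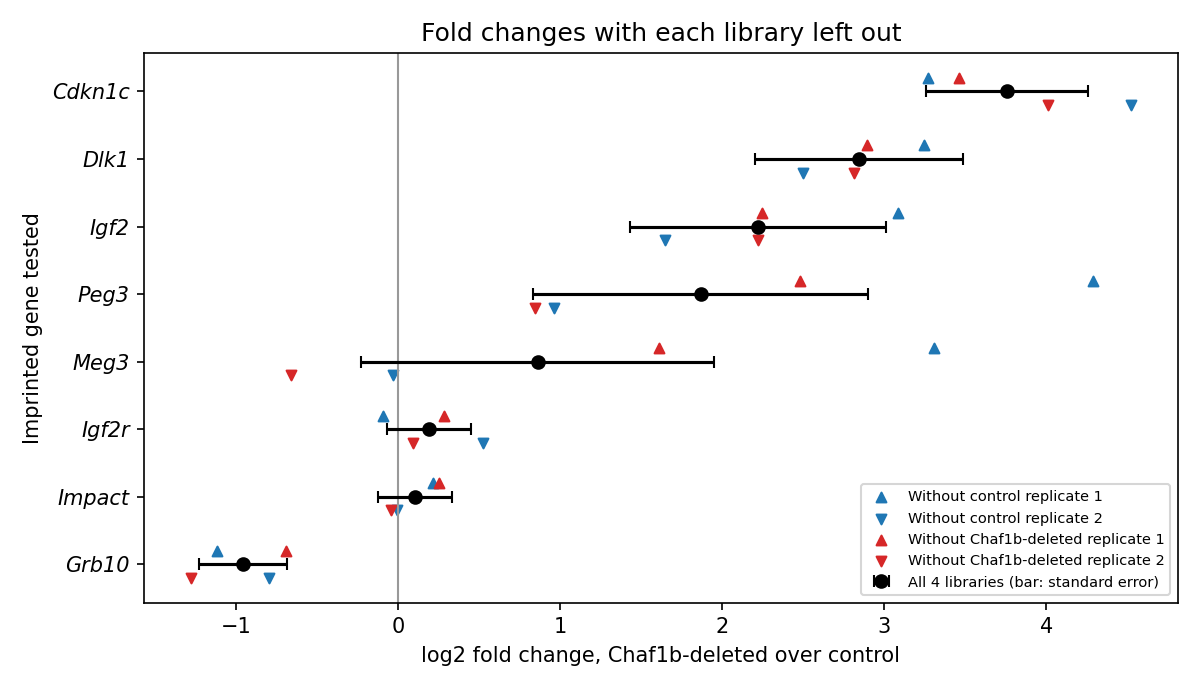
Log2 fold change of the 8 tested imprinted genes, Chaf1b-deleted over control, with all 4 libraries (black, bars for the SE) and with each library left out (triangles). With 1 library left out, Cdkn1c (3.27 to 4.52), Dlk1 (2.50 to 3.25), Igf2 (1.64 to 3.08) and Peg3 (0.84 to 4.29) stay above 0. Grb10 (-1.28 to -0.70) stays below 0, while Meg3, Igf2r and Impact cross it. Dlk1 and Igf2 were tested only because their counts were higher in the deleted libraries, so their direction is a description only.

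Compared per length, as CPM per kb of exon, the members fell into a group that was clearly expressed and a group near the floor. In the controls the levels per kb were 8.91 ± 0.88 for Impact, 4.47 ± 0.75 for Grb10, 4.27 ± 1.32 for Igf2r and 0.547 ± 0.322 for Cdkn1c (SD, n = 2 each). Grb10 and Igf2r did not differ beyond their spread. The other 4 measured members lay between 0.0180 and 0.0372. In the deleted libraries the levels per kb were 9.51 ± 2.39 for Impact, 7.26 ± 1.18 for Cdkn1c, 4.81 ± 0.96 for Igf2r and 2.29 ± 0.88 for Grb10. Cdkn1c thus moved from below Grb10 and Igf2r to a level that overlapped that of Impact. Dlk1 came next at 0.269 ± 0.040, then Igf2 at 0.127 ± 0.016.

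The other imprinted genes of the mouse were taken from lists of the same domains and of other domains. Of 30 genes of the same domains 23 were matched and 13 tested, of which 0 were called by edgeR's quasi-likelihood test, by its exact test or by DESeq2. At an unadjusted p under 0.05, 1 (Tnfrsf23) lay higher, beside 9.15% of all genes. The median log2 fold change of the 13 was 0.12. A further 10 of the 23 matched genes stayed under 10 counts in every library, among them Kcnq1, Ins2, Dio3 and Airn. Of 54 imprinted genes of other domains 52 were matched and 39 tested, of which 0 were called by edgeR's quasi-likelihood test and 2 each by its exact test (Sfmbt2 and Cdh15) and by DESeq2 (Sfmbt2 and Cmah). Over all 16500 genes tested, the exact test called 537 higher and DESeq2 472. At an unadjusted p under 0.05, 7 of the 39 lay higher, beside 9.15% of all genes, and 1 (Dhcr7) lower, beside 3.1%. Log2 fold changes in that list ran from -0.74 to 3.13, 20 of them above and 19 below 0, with a median of 0.0021.

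The smallest p-values in the list of other domains belonged to genes that lay higher. Sfmbt2, a paternally expressed Polycomb-group gene, had 125 and 149 counts in the controls and 246 and 338 in the deleted libraries, a log2 fold change of 1.34 with an SE of 0.34 and an adjusted p of 0.165 (edgeR's quasi-likelihood test). Cdh15, which encodes M-cadherin of muscle, had 1 and 4 counts against 25 and 14, with a log2 fold change of 3.13 and an SE of 0.84, and was tested only because its counts were higher in the deleted libraries. Cmah, which makes N-glycolylneuraminic acid, had 87 and 92 counts against 146 and 268, with a log2 fold change of 1.46 and an SE of 0.43. In all of these, as in Blcap at 0.77 (SE 0.22) and the anti-apoptotic Bcl2l1 at 0.65 (SE 0.22), both deleted libraries lay above both controls. The 5 were picked for their small p, so this adds no support. Over the 39 tested, 12 lay above both controls, beside 22.3% of all genes, and 8 below both, beside 21.4%. The adjusted p of these 5 genes was at most 0.284, and none passed the threshold in that test.

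Genes that maintain imprints, such as DNA methyltransferases, their partners and histone methyltransferases, did not pass the test. Of 28 listed 26 were tested, of which 0 were called by edgeR's quasi-likelihood test, its exact test or DESeq2, and 0 had an unadjusted p under 0.05. Of these, 21 had a negative and 5 a positive log2 fold change, beside 8666 negative and 7834 positive over all genes tested. The median of the 26 was -0.17. The chromatin remodeller Atrx had the smallest p, with 12212 and 15019 counts in the controls and 7080 and 8876 in the deleted libraries, a log2 fold change of -0.52 (SE 0.25) and an adjusted p of 0.468. Hells, a remodeller needed for DNA methylation, had a log2 fold change of -0.49 (SE 0.25), the dioxygenase Tet2 -0.50 (SE 0.27), the H3K9 methyltransferase Ehmt1 -0.35 (SE 0.20), and the de novo methyltransferase Dnmt3b 0.40 (SE 0.22).

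The rest of the insulin-like growth factor axis was read from a list of its ligands, receptors, binding proteins, adaptors and downstream factors. Of 21 genes listed 16 were tested, of which 0 were called by edgeR's quasi-likelihood test and 1 (Irs2) by its exact test and by DESeq2. Over all 16500 genes tested, the exact test called 537 higher and DESeq2 472. At an unadjusted p under 0.05, 2 lay higher (Irs2 and Igfbp7), beside 9.15% of all genes, and 0 lower, beside 3.1%. The median log2 fold change of the 16 was 0.12. Irs2, the adaptor that carries signals from the insulin and IGF1 receptors, had 518 and 689 counts in the controls and 1045 and 941 in the deleted libraries. Both deleted libraries lay above the controls, with a log2 fold change of 0.96, an SE of 0.21 and an adjusted p of 0.127 (edgeR's quasi-likelihood test). The binding proteins Igfbp7, Igfbp4 and Igfbp6 had log2 fold changes of 1.11 (SE 0.45), 0.55 (SE 0.24) and 1.58 (SE 0.73), and the transcription factor Foxo3 0.31 (SE 0.20).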

How the data were processed

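RNA-seq of 4 HSPC libraries was analysed. The authors aligned reads to mm9 with STAR and counted them with HTSeq-count, and the authors deposited raw counts per gene, 1 library per table, not pooled. The annotation release and strand setting of the counting are not given in the sources used here. Reads in no gene (35.8% to 48.3% of those uniquely aligned) or in several (2.05% to 2.76%) were left out. Symbols and NCBIM37 coordinates came from GENCODE, for 33068 of 43629 identifiers. Depth was 18468637 to 25409926 counts on genes, and intervals cover counting error only.

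Genes passing edgeR's filter (minimum count 10) were normalized by TMM and compared with glmQLFit and glmQLFTest, without covariates (edgeR 4.0.16, limma 3.58.1, R 4.3.3), over 16500 genes. Called genes had a Benjamini-Hochberg adjusted p under 0.05 and at least 1.5-fold. The SE is the unshrunken coefficient over the root of F. The test was checked on simulated data. Alternatives included DESeq2 1.42.0, other scalings and filters, a replicate block and leaving out each library. CPM is scaled to the counts on genes. Named genes are the 10 members, same-domain genes with 10 or more counts, Chaf1b, the Cip/Kip genes, and genes called or with the 5 smallest p-values in each list. Markers and genes within 500 kb are outside that rule. The members and lists were chosen with earlier results of these data known. Promoters of 7 of the 10 members were in the RefSeq table.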

Additional observations from a re-analysis of the deposited data

How the results depend on the processing

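The counts of calls were the values most sensitive to the processing. The single member called higher, Cdkn1c, became 0 with DESeq2's size factors, with library size alone, with at least 10 counts in every library (4 members tested), and at an adjusted p under 0.01 with 2-fold, and 2 with edgeR's exact test. Without a filter on low counts 2 members were called higher and 1 lower. Other imprinted genes called higher, 0 of 52, became 3 of 73 without that filter and 2 with the exact test or DESeq2's Wald test. Over all genes, 61 higher and 1 lower became 27 higher with DESeq2's size factors, 30 higher with library size alone, 808 and 79 without the filter, 3 and 0 with 10 counts in every library, 537 and 37 with the exact test, 472 and 34 with DESeq2's Wald test, and 0 and 0 at the stricter threshold. With 1 library left out they ranged from 125 to 331 higher and from 6 to 42 lower, members from 1 to 1 higher and 0 to 0 lower, and other imprinted genes from 0 to 1 in each direction. Such fits assume that the lone library varies like the other group, and the cause of these shifts was not tested. The labels do not say whether same-numbered libraries are paired. Their deviations from the group means correlated at 0.013. That value cannot settle it, because Chaf1b-deleted replicate 1 also differed in sex pattern and interferon-stimulated genes. With the replicate number as a block, 0 members were called (Cdkn1c at an adjusted p of 0.114), and 14 genes higher and 0 lower over all genes.

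Chaf1b itself lost its call with 10 counts in every library (adjusted p 0.0651) and with the block (0.0590). Of 40 genes named with values, 32 kept their direction under each alternative run. The others reversed. Without the filter Cd81 moved to 0.0001. With 1 library left out the log2 fold changes ranged from -0.0961 to 0.5246 for Igf2r, -0.6612 to 3.3069 for Meg3, -0.0462 to 0.2479 for Impact, -0.304 to 1.0502 for Phlda2, -0.0749 to 1.9604 for Slc22a18, -0.8885 to 0.2223 for Slc22a3, -0.1194 to 0.0684 for Cd81 and -0.698 to 0.9188 for Rtl1. Cobl was called only without control replicate 1, at 5.94. Depth limits H19, Plagl1, Igf2, Peg3 and Meg3.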
